A study of Mus musculus with 6 samples.

Results

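The 8 miRNAs described here, mmu-miR-146a, mmu-miR-146b, mmu-miR-155, mmu-miR-21, mmu-miR-9, mmu-miR-132, mmu-miR-212 and mmu-miR-147, are known to be induced in myeloid cells by Toll-like receptors and NF-κB. They were taken by assay name, without the opposite-strand assays marked #, from the 750 miRNA assays of a TaqMan low-density array. The array compared freshly isolated classical (Ly6C high) and non-classical (Ly6C low) monocytes of 3 DBA/1 mice, an inbred strain, and each mouse gave 1 sample of each subset, 6 in all. Age, sex, genotype, sorting and stimulation were not given in the sources used here. An assay returns a threshold cycle (Ct), a log2 scale on which 1 cycle less means more template by 1 log2 unit, and a Ct of 40 stands for no signal. Of the 8 assays, 7 were on card A and that of miR-212 was on card B.

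Toll-like receptors on monocytes sense microbial molecules and switch on NF-κB, which drives inflammatory genes and also a group of miRNAs. Several of these miRNAs then act on the same pathway. miR-146a and miR-146b are known to repress the signalling proteins TRAF6 and IRAK1 and are known as brakes. In Ly6C high monocytes, the authors' paper describes RelB as the target of miR-146a, with TRAF6 and IRAK1 left unchanged. miR-155 represses the inhibitors SHIP1 and SOCS1 and is known to promote inflammation, and miR-21 represses PDCD4. In mouse, Ly6C high monocytes are the inflammatory subset, and Ly6C low monocytes patrol the vessel wall.

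RefSeq (GRCm38.p6) gave the mature sequence of 7 of the 8 miRNAs, matched by name. The sequences are shown because the seed (bases 2 to 8, in capitals), which pairs with targets, defines which members form families.
miR-146a-5p: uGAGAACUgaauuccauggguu
miR-146b-5p: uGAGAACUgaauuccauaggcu
miR-155-5p: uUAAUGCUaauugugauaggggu
miR-21a-5p: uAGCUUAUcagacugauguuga
miR-9-5p: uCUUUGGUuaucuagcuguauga
miR-132-3p: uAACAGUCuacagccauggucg
miR-212-3p: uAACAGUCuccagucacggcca

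The 7 sequences fell into 5 seed groups. miR-146a and miR-146b share a seed and differ by 2 substitutions over 22 bases, G18A and U21C, read from miR-146a to miR-146b and counted from 1 at the 5′ end. miR-132 and miR-212 share another seed and differ by 5 substitutions, all downstream of it (A10C, C14U, U17C, U20C and G22A), and their hairpins lie 203 bases apart. No other mature mouse miRNA of the table has the seed of miR-146, miR-155, miR-9, miR-132 or miR-212, and 1 other, miR-21c, has that of miR-21. In GRCm38.p6, miR-146a-5p lies at chr11:43374435-43374456 (minus strand), outside any other annotated gene. miR-146b-5p lies at chr19:46342790-46342811 (plus strand) within the span of the lncRNA Gm36493. miR-155-5p lies at chr16:84714143-84714165 (plus strand) within its host lncRNA Mir155hg, and miR-21a-5p lies at chr11:86584120-86584141 (minus strand) within the span of the protein-coding gene Vmp1. miR-9-5p is encoded at 3 loci, which a single assay reads together. How far the miR-146a assay also amplifies miR-146b, or the reverse, cannot be read from the deposited values.

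One sample went against its label on card A. miR-223 and miR-142-3p, which myeloid and other blood cells are known to make in large amounts, were undetected in the Ly6C high sample from mouse 1, as was miR-142-5p. In the other 5 samples, miR-223 had a Ct of 16.96 to 21.95 and miR-142-3p of 19.97 to 23.97, so all 3 of these markers were present. Of the 3 epithelial miRNAs listed, miR-200b had a Ct of 21.98 in that sample, was undetected in the Ly6C high sample from mouse 2 and lay between 27.09 and 31.00 in the other 4. The others did not follow, with miR-200c at −7.30 relative to U6 in that sample, against −8.04 to −5.37 elsewhere, and miR-141 undetected in it. The summed level of the myeloid list was 0 in the sample from mouse 1 and 268% to 1500% of U6 in the others. The differences between the subsets are therefore given with and without this sample.

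**Figure D1:**
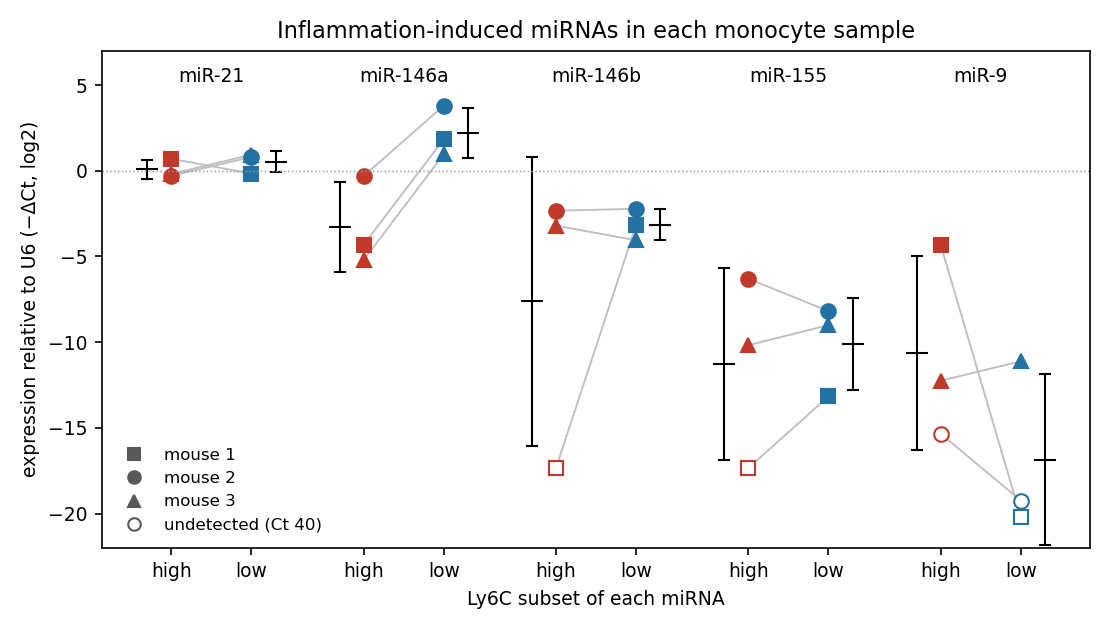
Expression relative to U6 (−ΔCt, log2 scale) of the 5 tested miRNAs in the 3 Ly6C high (red) and 3 Ly6C low (blue) samples, with grey lines joining samples of 1 mouse, open symbols for undetected reactions and black bars for mean ± SD. The Ly6C low values of miR-146a (0.97 to 3.80) lie above its Ly6C high values (−5.21 to −0.31), whereas the subsets overlap for the other 4.

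mmu-miR-146a, a brake on Toll-like receptor signalling, was among the most strongly amplified assays of Ly6C low monocytes and was lower in each Ly6C high sample. Its Ct was 17.97, 16.96 and 20.95 in the Ly6C low samples from mice 1, 2 and 3, and 26.98, 24.97 and 25.98 in the Ly6C high samples. Relative to U6, the small nuclear RNA whose Ct was subtracted by the authors to give ΔCt, expression (−ΔCt) was 1.84, 3.80 and 0.97 in Ly6C low and −4.31, −0.31 and −5.21 in Ly6C high monocytes. The subsets did not overlap, and the Ly6C high sample from mouse 2 came closest to the Ly6C low samples. The difference of Ly6C high minus Ly6C low was −5.48 (standard error, SE, 1.94), larger than the SD within either subset (2.61 and 1.45, n = 3 each), and lower in Ly6C high in 3 of 3 mice.

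This difference did not pass the test across assays. Of the 201 assays that were below a Ct of 35 in 3 or more samples, 0 (0%) had a limma adjusted p of 0.05 or less, and miR-146a had 0.985. Without adjustment its p was 0.0305 in limma, and in all 2 assays (0.995%) were lower in Ly6C high monocytes with a p under 0.05. Of the 5 tested members, miR-146a was the only one whose Ly6C high values all lay below its Ly6C low values, as did those of 5 of the 201 assays (2.49%). The exact permutation test (2-sided, 3 against 3 samples, without pairing by mouse) gave p = 0.1, the smallest for 3 against 3 unpaired samples. In such bulk samples, fewer cells with a miRNA and less of it per cell cannot be told apart.

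Without the Ly6C high sample from mouse 1, the difference of miR-146a was −4.96 (SE 1.93, limma adjusted p = 0.965), and the unadjusted p in that fit was 0.0577. The median difference of all 201 assays moved from −0.45 to 0.63 without that sample, so that miR-146a lay at −5.59 relative to that median, against −5.03 with all samples. Without that sample it had the 6th lowest difference of the 201 assays, and with all samples the 7th lowest. The Ly6C high values of mice 2 and 3 were below all Ly6C low values for miR-146a and for 7 assays (3.48%) in all. With all samples and the median of the tested assays in place of U6, the difference of miR-146a was −3.02 (SE 2.97), with an unadjusted p of 0.349 and an adjusted p of 0.922 in limma.

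miR-146a was also described without U6, by its rank on the card and by its distance from other members in the same sample. Ranked by Ct among the miRNA assays under 35 on its card, miR-146a was number 1 of 127, 1 of 146 and 2 of 115 in the Ly6C low samples from mice 1, 2 and 3. In the Ly6C high samples it was number 30 of 109, 11 of 112 and 53 of 129. Since Ct values lay close to whole cycles, neighbouring ranks often differ by less than 1 cycle. miR-146a was ahead of miR-21 by 2.01, 3.01 and 0.03 cycles in the Ly6C low samples, and stood at −5.02, −0.02 and −5.01 relative to it in the Ly6C high samples. The subsets did not overlap, but the values of mouse 3 (Ly6C low) and mouse 2 (Ly6C high) differed by less than 1 step of the Ct scale. The difference between the subset means was −5.03 (exact permutation p = 0.1, 2-sided), and without the Ly6C high sample from mouse 1 it was −4.20 (exact permutation p = 0.2, the smallest for 2 samples against 3).

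mmu-miR-146b, with the same seed, overlapped between the subsets where it was detected. Its Ct was 22.97, 22.98 and 25.98 in the Ly6C low samples and 26.98 and 23.97 in the Ly6C high samples from mice 2 and 3, and it was undetected in that of mouse 1. Expression relative to U6 was −3.16, −2.22 and −4.06 in Ly6C low monocytes and −2.33 and −3.20 in the Ly6C high samples with a signal, so no subset was above the other. With the undetected reaction at −17.34, a value set by the floor of 40 cycles, the difference was −4.47 (SE 4.23, limma adjusted p = 0.985, exact permutation p = 0.6). Without that sample it was 0.38 (SE 0.98, limma adjusted p = 0.997), and within mice 2 and 3 it was −0.11 and 0.86.

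The gap between these family members was wider in the Ly6C low samples than in the Ly6C high samples from mice 2 and 3, but not than in that from mouse 1. In the Ly6C low samples, miR-146a was ahead of miR-146b by 5.00, 6.02 and 5.02 cycles. In the Ly6C high samples from mice 2 and 3 the value was 2.01 and −2.00, so that miR-146b had the lower Ct in the latter. These 2 values were below the Ly6C low values, with a difference of −5.34 between the means (exact permutation test, 2-sided, p = 0.2, the smallest for 2 samples against 3). The deviating sample went the other way, since miR-146b was undetected there and the gap is at least 13.02 cycles, wider than in any Ly6C low sample. With this lower bound included, the subsets overlapped. The Ly6C high mean was then at least 4.34 cycles, against 5.35 in Ly6C low monocytes (exact permutation p = 0.8 at the bound itself). Each assay amplifies with its own efficiency, so the sign within a sample is not a ratio of molecules, whereas the change between samples does not depend on U6.

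**Figure D2:**
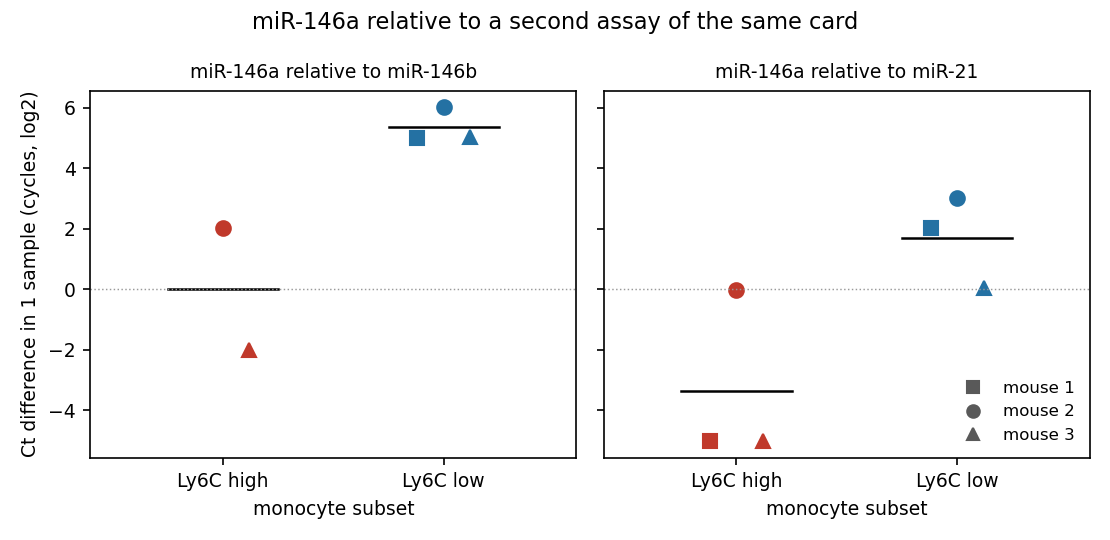
Ct of miR-146b (left) or miR-21 (right) minus Ct of miR-146a in the same sample, in cycles, for Ly6C high (red) and Ly6C low (blue) samples by mouse, with black lines at the means. miR-146a is 5.00 to 6.02 cycles ahead of miR-146b in Ly6C low and at −2.00 and 2.01 in Ly6C high monocytes, where mouse 1 has no point because miR-146b was undetected (a gap of at least 13.02).

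mmu-miR-155 gave a weak signal in both subsets. Its Ct was 32.97, 28.95 and 30.93 in the Ly6C low samples and 30.95 in each of the Ly6C high samples from mice 2 and 3, and it was undetected in that of mouse 1. On card A it ranked between number 66 of 112 and number 115 of 127 where it was detected. Expression relative to U6 was −13.17, −8.19 and −9.01 in Ly6C low and −6.30 and −10.18 in Ly6C high monocytes of mice 2 and 3, and these ranges overlapped. The difference was −1.15 (SE 3.22, limma adjusted p = 0.985) with the undetected reaction and 1.89 (SE 2.19, limma adjusted p = 0.997) without that sample, so its sign depends on 1 sample. A floor of 35 cycles (0.52) or the median of the tested assays in place of U6 (1.31) also turned it. The global mean of each card in place of U6 did not (−2.12). Within mice 2 and 3 the values were 1.89 and −1.17.

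For miR-155 and miR-146a, the picture was similar. miR-146a was ahead of it by 15.01, 12.00 and 9.98 cycles in the Ly6C low samples and by 5.99 and 4.98 cycles in the Ly6C high samples from mice 2 and 3. The difference between the means was −6.85 (exact permutation test, 2-sided, p = 0.2). In the deviating sample, where miR-155 was undetected, the gap is at least 13.02 cycles, above those of the Ly6C low samples from mice 2 and 3. With this lower bound included, the subsets overlapped. At the bound itself the difference was −4.33 (exact permutation p = 0.3), which a larger gap would change. The pair of miR-146b and miR-155 overlapped between the subsets, at 3.97 and 6.98 cycles in Ly6C high and 10.01, 5.97 and 4.96 in Ly6C low monocytes (exact permutation p = 0.8). In all, 6 pairs among miR-146a, miR-146b, miR-155 and miR-21 were computed, and the 3 with miR-146a share its values and are not separate results.

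mmu-miR-21 was high in all 6 samples. Its Ct was 19.98, 19.97 and 20.98 in the Ly6C low samples and 21.96, 24.95 and 20.96 in the Ly6C high samples. Relative to U6 it was −0.17, 0.80 and 0.94 in Ly6C low and 0.70, −0.29 and −0.19 in Ly6C high monocytes, a total range of little over 1 cycle. It ranked from number 2 to number 10 on card A in all 6 samples, with number 2 of 109 in the deviating sample. The difference was −0.45 (SE 1.38, limma adjusted p = 0.985), and −0.76 (SE 0.84, adjusted p = 0.997) without that sample. Within mice 1, 2 and 3 it was 0.88, −1.09 and −1.13, and a fit blocked by mouse over mice 2 and 3 alone gave −1.11 (SE 0.22, limma adjusted p = 0.443, between 0.443 and 0.999 over all alternatives). Its sign turned with the median of the tested assays in place of U6, at 2.01, but not with the global mean of each card, at −1.42.

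By mean −ΔCt, the order in Ly6C low monocytes was miR-146a (2.20 ± 1.45, SD, n = 3), miR-21 (0.52 ± 0.61), miR-146b (−3.15 ± 0.92) and miR-155 (−10.13 ± 2.67). Of these neighbours, miR-146a and miR-21 were 1.68 ± 1.52 cycles apart, a gap about as large as its spread. In Ly6C high monocytes without the sample from mouse 1, the means were −0.24 for miR-21, −2.76 for both miR-146a and miR-146b, and −8.24 for miR-155. The equal means hide unlike values in mice 2 and 3, at −0.31 and −5.21 for miR-146a and −2.33 and −3.20 for miR-146b. The order of miR-146a and miR-146b thus differed between these mice. These orders compare assays of unequal efficiency and are descriptions.

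mmu-miR-9, which is best known from the nervous system and is also induced in stimulated monocytes, had a strong signal only in the deviating sample. Its Ct was 26.98 in the Ly6C high sample from mouse 1, 33.03 and 33.04 in the Ly6C high and Ly6C low samples from mouse 3, and 40 in the other 3. Undetected reactions again set the floor, so the size of the difference, 6.21 (SE 3.82, limma adjusted p = 0.985), or 3.05 (SE 3.34, adjusted p = 0.997) without that sample, depends on it. In mouse 3, the only mouse with a signal in both subsets, it was −1.13.

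The last 3 members were not tested, because they had a Ct under 35 in fewer than 3 samples. mmu-miR-147, a miRNA induced by Toll-like receptors in macrophages, had a Ct of 26.97 in the Ly6C high sample from mouse 1 and 32.98 in that of mouse 3, and was undetected in the other 4 samples. mmu-miR-132, a target of the transcription factor CREB, was detected at 31.01 in the Ly6C high sample from mouse 3 alone. mmu-miR-212, encoded beside it, was undetected in all 6 samples. In the deviating sample, miR-146a, miR-9 and miR-147 thus had nearly equal Ct values (26.98, 26.98 and 26.97), while miR-146b, miR-155, miR-132 and miR-212 gave no signal.

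Opposite-strand assays existed for 3 of the 8 members (mmu-miR-146b#, mmu-miR-21# and hsa-miR-9#). All 18 reactions of these assays were undetected, also for miR-21, whose main strand was among the strongest signals.

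Among 21 other miRNAs linked to Toll-like receptor signalling, 15 were tested and 0 passed an adjusted p of 0.05 in limma, with 0 at an unadjusted p under 0.05. With all samples, 7 were higher and 8 lower in Ly6C high monocytes, with a median difference of −0.14 beside −0.45 for all 201 assays. Without the Ly6C high sample from mouse 1, 15 lay above and 0 below the Ly6C low mean, with a median of 1.38 beside 0.63, when 135 of all 201 assays were higher. Among the 15, miR-29b (0.04) and miR-125a-5p (0.07) hardly differed. The values of let-7i (3.06, SE 7.85), miR-221 (0.73, SE 5.13) and miR-199a-3p (1.55, SE 3.79) depend on undetected reactions. In that fit 1 of the 15, and 4 of all 201 assays (3 higher and 1 lower), had an unadjusted p under 0.05 in limma. It was miR-301a, known to enhance NF-κB activity, at 2.56 (SE 0.82, limma adjusted p = 0.965). With all samples it had the opposite sign, at −1.47 (SE 3.57). This value is set by the floor of 40 cycles, since miR-301a was undetected in the Ly6C high sample from mouse 1. miR-27b was at 2.23 (SE 0.84) without that sample and 0.88 (SE 1.76) with it. let-7e, which targets TLR4, was at 0.38 (SE 0.98) without it and 0.20 (SE 1.42) with it. miR-187, miR-346 and miR-511 were undetected in all 6 samples.

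The assays with the profiles most like those of the members were sought on card A among 122 other tested assays, by the mean absolute difference of the centred −ΔCt values over all 6 samples, the deviating one included. For miR-146a they were miR-150 (1.89 cycles) and miR-26b (2.01), so no assay followed it closely. For miR-146b they were miR-484 (0.28) and miR-195 (0.33), for miR-155 miR-99b (0.89) and miR-872 (1.17), for miR-21 let-7g (0.34) and miR-30c (0.54), and for miR-9 miR-122 (0.61) and miR-196b (2.14). All assays share the U6 value of their sample and card. The undetected reaction in the Ly6C high sample from mouse 1 is shared by miR-146b, miR-155 and the assays named for them.

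Lymphocytes are also known to express miR-146a, so the lymphocyte markers are given beside it. For miR-150, the authors' paper describes a higher level in Ly6C low than in Ly6C high monocytes. For miR-342-3p, it reports a higher level in human non-classical than in human classical monocytes. All 3 markers (miR-150, miR-342-3p and miR-181a) were detected in 5 samples. In the Ly6C high sample from mouse 1, 2 were detected. miR-342-3p was undetected there and set to −17.34 by the floor of 40 cycles. The summed level of the 3 markers was 91.5%, 176% and 50.8% of U6 in the Ly6C low samples from mice 1, 2 and 3. In the Ly6C high samples it was 20.6%, 189% and 21.8%. miR-150 was the most abundant in all Ly6C low samples. The sum was lower in the Ly6C high sample for mice 1 and 3. For mouse 2 the sums were nearly level, at less than 1 step of the Ct scale apart. In that mouse, miR-342-3p was lower in the Ly6C high sample (−2.35 against −0.24), whereas miR-150 (0.67 against −0.21) and miR-181a (−3.33 against −4.20) were higher. For miR-146a, the Ly6C high sample was the lower one in all 3 mice. With all samples, the differences were −2.47 for miR-150 (SE 2.37), −6.45 for miR-342-3p (SE 4.23) and 1.52 for miR-181a (SE 1.43), beside −5.48 for miR-146a. The size for miR-342-3p depends on the floor, whereas miR-146a was detected in all 6 samples. Without the Ly6C high sample from mouse 1, the differences were −0.62 for miR-150 (SE 1.79), −1.60 for miR-342-3p (SE 0.97) and 1.03 for miR-181a (SE 0.86), beside −4.96 for miR-146a. The Ly6C high values of miR-342-3p (−17.34, −2.35 and −3.18) all lay below its Ly6C low values (−1.19, −0.24 and −2.06), as did those of miR-146a, with and without that sample. The part of these markers in the result was not tested.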

How the data were processed

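From each sample, 10 ng of total RNA was reverse transcribed with stem-loop primers and preamplified. The authors' deposited tables hold raw Ct values and ΔCt values, both log2 values of which a lower one means more template. Subtraction showed that the ΔCt of a card is the Ct minus that card's U6 value. Another deposited table holds the authors' own ratios between the subsets and was not used. Software and threshold for Ct are not given in the sources used here.

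Expression was −ΔCt. The 18 control wells were left out, and 201 of 750 assays, those below a Ct of 35 in 3 or more samples, were tested with limma 3.58.1 in R 4.3.3 (lmFit, eBayes, no block), with Benjamini-Hochberg adjustment over all 201. Undetected reactions stayed at 40. The script was tested on simulated data. Single values used exact permutation without pairing by mouse (scipy 1.17.1). On each card, 31 to 148 miRNA assays were under 35, and the number of arrays limits the precision. On card A, 89.6% to 96.4% of the detected values were at most 0.05 from a whole cycle, so its values come mostly in steps of about 1 cycle. On card B the share was 83% to 88.9%, but 12.1% for the Ly6C low sample from mouse 1.

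The subset samples of a number come from 1 mouse, per the labels. Their deviations from the subset means correlated at 0.32, 0.62 and 0.72 over the 201 assays (on card A at −0.09, 0.41 and 0.41). The members, the lists and the 22 alternatives were chosen with earlier results of these data known. The alternatives cover normalization, filter, floor, missing values, mouse as a block, variance model, and samples, mice or 1 card left out. Named assays were the members, their opposite strands, the listed Toll-like receptor miRNAs, the marker lists (myeloid, lymphocyte, erythroid, platelet, endothelial, epithelial, liver, muscle, neuron) and the 2 most alike assays per tested member.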

Additional observations from a re-analysis of the deposited data

Results flagged for a closer look

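A signal appeared in an assay outside all comparisons. For the Ly6C low sample from mouse 2, the card B control well for a plant miRNA read 33.97, and it read 40 on all other cards. The members with a signal are all on card A, where this control was at 40 in all 6 samples, and miR-212, on card B, was itself undetected in that sample. The source of the signal was not tested.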

How the results depend on the processing

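No assay and no member passed the threshold under any of the 22 alternatives (limma). Assays with an unadjusted p under 0.05 numbered 0 (median of the tested assays) to 16 (without mouse 1 and with the block), against 2, and members 0 to 2, against 1. miR-146a was lower in Ly6C high monocytes under all 22, between −7.35 (no normalization) and −3.02 (median of the tested assays in place of U6), with adjusted p from 0.283 to 0.999. With samples or mice left out it was −6.96 to −4.52. Without normalization the median of all assays was −2.32, against −0.45. Relative to the median of all assays, miR-146a was at −5.03 with U6, −3.01 with the median of the tested assays in its place and −7.35 with no filter. With the mouse as a replicate block the difference was again −5.48 (SE 1.25, adjusted p = 0.949), and the block changed no call of the 5 tested members. Without mouse 1 and with the block, miR-146a was at −5.14 (adjusted p = 0.443).

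miR-146b turned positive at 0.38 with undetected reactions as missing or with card A of the Ly6C high sample from mouse 1 as missing, and at 0.37 without mouse 1 and with the block. Its range was −7.12 to 0.38 with samples left out, and it reached −7.14 with mice left out. miR-155 turned to 1.31 with the median of the tested assays, 0.52 with a floor of 35 cycles, 1.89 with undetected reactions or that card as missing, and 0.36 with the block when mouse 1 was left out. Its range with samples or mice left out was −3.63 to 1.89. Its undetected reaction is the one that these settings change or drop, except for the median. miR-21 ranged from −2.32 without normalization, with −1.42 for the global mean, to 2.01 with the median of the tested assays, and the cause of the turn was not tested. miR-9 stayed positive, between 1.38 and 9.89, in the 20 alternatives that tested it. The number of samples and the undetected reactions limit all of these values.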

Other observations

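The remaining marker lists were low or patchy. Erythroid miR-451 had a Ct of 30.94 to 32.98 in 5 samples, and miR-144 and miR-486 were undetected in all 6. Platelet and endothelial miR-126-3p lay between 28.97 and 31.97 in the same 5 samples. miR-126-5p had a signal in 2 samples, 1 of them above 35, and miR-197, the other platelet marker, had one, at 27.98, in the Ly6C high sample from mouse 1 alone. The epithelial list (miR-200b, miR-200c and miR-141) summed to 162% of U6 in that sample, nearly all of it miR-200b, and to 0.61% to 2.67% in the others. Liver miR-122 had a −ΔCt of −6.31 there, −11.23 and −11.09 in the Ly6C high and Ly6C low samples from mouse 3, and was undetected in the other 3. These are the samples in which miR-9 had a signal. Muscle miR-133a was detected at 33.94 in the Ly6C high sample from mouse 3, and miR-1 only above a Ct of 35. Neuronal miR-124 was detected in 3 samples at 31.97 to 34.01.

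Some control assays differed by mouse more than by subset. On card A, the Ct of snoRNA202 was 31.92 (Ly6C high) and 30.96 (Ly6C low) for mouse 1, 22.97 and 18.99 for mouse 2, and 40 for both samples from mouse 3. The same control did not always match between the cards. On card B, snoRNA202 had a signal only in the Ly6C low sample from mouse 2 (33.98). In the Ly6C high sample from mouse 1, Y1 read 40 on card A and 30.01 on card B. Across the tested assays of card B, the deviations of the samples of 1 mouse correlated at 0.79, 0.76 and 0.76 (assays are not independent replicates). Of the members, only miR-212 is on this card, with no signal.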
